A study of Homo sapiens with 12 samples.

Results

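PRDX3 and its relatives form a chain of enzymes that removes peroxides with electrons from NADPH. Described here are 10 of the 85298 genes in the deposited table: the peroxiredoxins PRDX1 to PRDX6, the thioredoxins TXN and TXN2, and the thioredoxin reductases TXNRD1 and TXNRD2. The members were listed by name, and all 10 passed the filter on low counts, as did 26366 genes in all. PRDX3 heads the list because it was chosen by its values with both hairpins against scramble, so its values in those comparisons, and between the hairpins, are given as a description without a test. The other 9 members were listed for their family, with earlier results of these data known, and their values were tested.

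A peroxiredoxin reduces hydrogen peroxide or an organic peroxide with a reactive cysteine, and the oxidised cysteine is then mostly reset by a thioredoxin. Thioredoxin reductase, a selenoprotein, recharges thioredoxin with electrons from NADPH. PRDX1, PRDX2, TXN and TXNRD1 act mainly in the cytosol and nucleus, PRDX3, TXN2 and TXNRD2 in the mitochondrial matrix, PRDX4 in the endoplasmic reticulum, and PRDX5 in several compartments.

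The cells were HEK 293T, a human embryonic kidney line that carries the SV40 large T antigen and takes up lentivirus readily. All 12 libraries came from cells that had received a lentiviral hairpin with polybrene, and RNA was taken 72 h later and selected by its poly(A) tail. Cells of 4 libraries carried a scramble hairpin as the control, those of 4 libraries shRNA-B and those of 4 libraries shRNA-D, both directed at SIDT2, a lysosomal membrane protein that takes up RNA. The question set for the series was which transcripts depend on that uptake. Untransduced cells and cells with SIDT2 restored were not analysed here, and the labels do not say how the 4 cultures of a group were kept apart. Knockdown lowers SIDT2 RNA and does not delete the gene.

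SIDT2 (ENSG00000149577) was lower with the hairpins, and no knockdown library reached the scramble range. Its level was 18.3 to 21.7 CPM (counts scaled to library size, with TMM factors) with scramble, 5.77 to 8.27 with shRNA-B and 5.47 to 7.58 with shRNA-D. Totals lay between 68737402 and 102644699 estimated counts per library. Of 8 genes typical of this line 7 exceeded 1 CPM on average, and LHX1 did not. Among 5 fibroblast genes COL1A1 alone exceeded 1 CPM, with list sums of 11.7 to 18.3 CPM with scramble, 10.5 to 16.05 with shRNA-B and 10.9 to 19.9 with shRNA-D. The leukocyte genes PTPRC, CD3E, ITGAM and LYZ were under 1 CPM on average, as were all 3 endothelial and all 3 hepatocyte genes.

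PRDX3 (ENSG00000165672), the peroxiredoxin of the mitochondrial matrix and a main remover of the hydrogen peroxide made there, was higher with both hairpins. Scramble libraries 1 to 4 held 62.2, 116.9, 105.4 and 139.5 CPM. With shRNA-B the 4 values were 229.5, 237.2, 291.6 and 308.8 CPM, and shRNA-D gave 212.5, 216.2, 263.4 and 317.9 CPM. The lowest knockdown value, 212.5 CPM, thus lay above the highest scramble value, 139.5 CPM, and the values of both hairpins overlapped each other over most of their range. Group means were 106 ± 32.4 CPM for scramble, 267 ± 39.3 for shRNA-B and 253 ± 49.4 for shRNA-D (SD, n = 4 each).

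The fitted log2 fold change of PRDX3 was 1.33 ± 0.21 (SE) with shRNA-B and 1.25 ± 0.21 with shRNA-D, or 2.52-fold and 2.38-fold. Between the hairpins the log2 difference, shRNA-D minus shRNA-B, was -0.08, with a 95% interval of -0.53 to 0.37. Set against the scramble library of the same replicate number, the 4 shRNA-B libraries were 3.69-fold, 2.03-fold, 2.77-fold and 2.21-fold higher. The 4 shRNA-D libraries were 3.42-fold, 1.85-fold, 2.498-fold and 2.28-fold higher. Number 1 gave the highest ratio with both hairpins, and scramble library 1, which is in both ratios, held the lowest PRDX3 level of all 12. Without scramble replicate 1 the log2 fold changes were 1.15 with shRNA-B and 1.09 with shRNA-D. Leaving out each of the other 11 libraries in turn gave 1.25 to 1.50 and 1.14 to 1.44. In bulk RNA, a different share of cells with the transcript and a different amount per cell cannot be told apart.

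**Figure D1:**
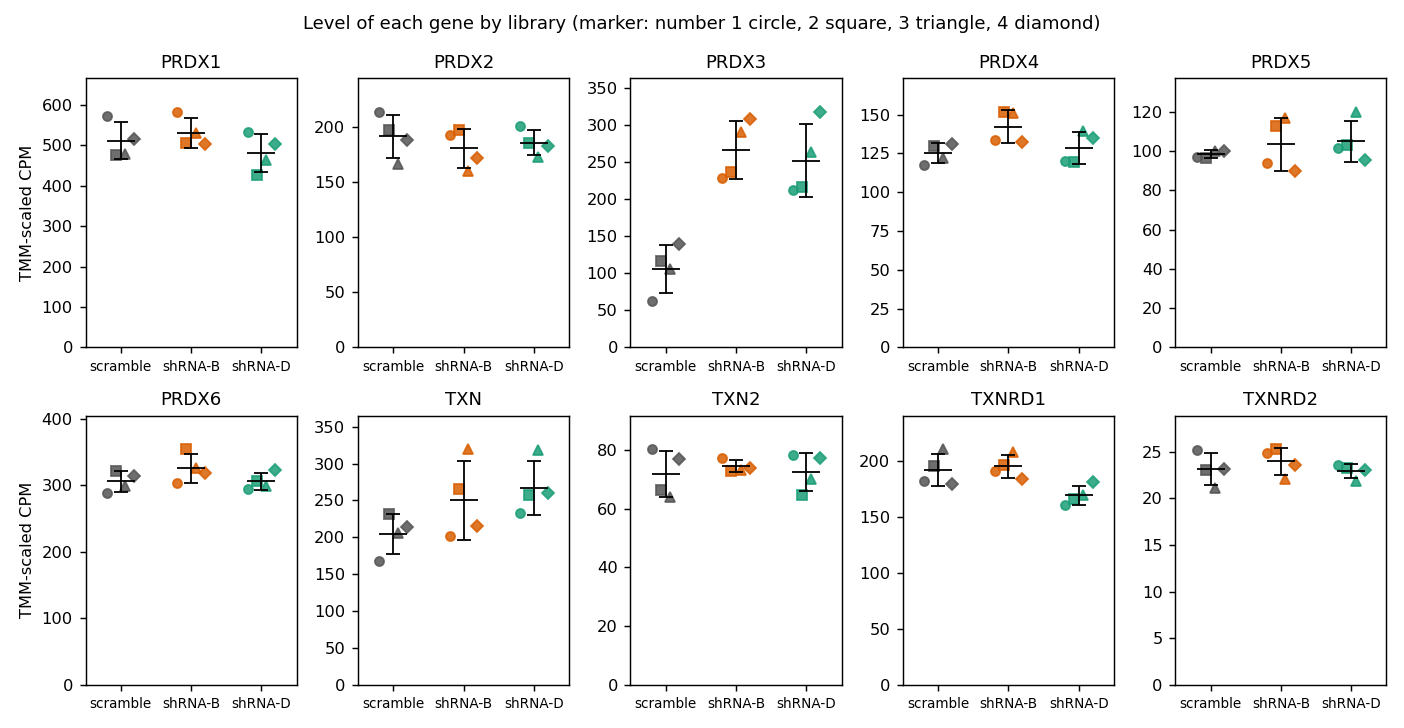
TMM-scaled CPM (y axis, from 0) of each of the 10 genes in the 4 scramble, 4 shRNA-B and 4 shRNA-D libraries; each point is a library, its shape gives the replicate number, and the bar and whiskers give mean and SD. PRDX3 sits at 62.2 to 139.5 with scramble and at 212.5 to 317.9 with the hairpins, while most other genes overlap between groups.

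The sequence upstream of the start of 4 members is shown because their groups did not overlap in at least 1 comparison: PRDX3 with both hairpins, PRDX4 with shRNA-B and TXN with shRNA-D, each against scramble, and TXNRD1 between hairpins. Of all genes tested, 4.95% did not overlap with shRNA-B against scramble, 3.61% with shRNA-D against scramble and 6.05% between hairpins. PRDX3 is among the 4 by the way it was chosen. Each run is the 250 bases before an annotated RefSeq start in GRCh38.p14, 5′ to 3′ on the gene's strand. PRDX3 lies on chromosome 10, minus strand, with its window at chr10:119178813-119179062, PRDX4 on chromosome X, plus strand, at chrX:23667243-23667492, TXN on chromosome 9, minus strand, at chr9:110256508-110256757, and TXNRD1 on chromosome 12, plus strand, with the downstream of its 2 windows at chr12:104286782-104287031. Capitals mark a match, on either strand, to the E-box CACGTG or to the core of the antioxidant response element, TGACNNNGC, 2 motifs chosen after the levels were seen.
PRDX3: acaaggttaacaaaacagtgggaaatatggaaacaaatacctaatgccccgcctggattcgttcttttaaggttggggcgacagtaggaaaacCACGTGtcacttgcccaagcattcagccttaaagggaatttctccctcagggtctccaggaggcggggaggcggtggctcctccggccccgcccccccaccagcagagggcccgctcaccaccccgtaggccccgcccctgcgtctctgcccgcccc
PRDX4: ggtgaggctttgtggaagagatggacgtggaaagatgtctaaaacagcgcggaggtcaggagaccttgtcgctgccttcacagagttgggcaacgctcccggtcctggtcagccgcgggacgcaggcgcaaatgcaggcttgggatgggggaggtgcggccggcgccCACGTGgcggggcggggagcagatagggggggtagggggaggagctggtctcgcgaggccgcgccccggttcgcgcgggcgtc
TXN: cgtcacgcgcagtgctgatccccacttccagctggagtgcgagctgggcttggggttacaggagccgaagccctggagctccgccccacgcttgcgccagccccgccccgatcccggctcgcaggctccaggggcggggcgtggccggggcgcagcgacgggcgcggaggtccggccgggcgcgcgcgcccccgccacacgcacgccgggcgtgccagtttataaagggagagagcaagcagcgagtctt
TXNRD1: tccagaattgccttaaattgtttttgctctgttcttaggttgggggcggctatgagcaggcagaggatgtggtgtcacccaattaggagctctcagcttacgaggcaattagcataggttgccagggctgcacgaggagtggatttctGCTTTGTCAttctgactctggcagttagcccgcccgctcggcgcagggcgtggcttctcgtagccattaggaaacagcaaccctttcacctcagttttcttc
RefSeq windows were matched for 7 of the 10 members; PRDX1, PRDX6 and TXN2 were the others. The PRDX3 window held 1 E-box, which began 157 bases before the start, and 0 antioxidant response cores. The PRDX4 window held an E-box 83 bases before the start. Both TXNRD1 windows held 1 antioxidant response core each, 102 bases before the start in the run shown and 99 in the other, and the TXN window held neither motif. Among 35116 windows of 250 bases, 6.34% held the E-box and 10.9% the antioxidant response core. A match is a description of the letters alone, and its use in these cells was not tested.

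Of the 9 other members, quasi-likelihood F-tests in edgeR, with p adjusted by Benjamini and Hochberg's method over all 26366 genes, called 0 with shRNA-B and 0 with shRNA-D at an adjusted p under 0.05. The smallest adjusted p was 0.641 with shRNA-B and 0.882 with shRNA-D, and DESeq2 called 0 in each as well. At an unadjusted p under 0.05 there was 1 with shRNA-B, PRDX4, and there were 2 with shRNA-D, TXN and TXNRD1. Among all genes tested, the share called was 0.876% for shRNA-B and 0.269% for shRNA-D, so 0 of 9 is near the background. The mean of both hairpins against scramble gave 0 calls (background 0.231%) and the comparison of hairpins 0 (background 0.952%), each with 1 member at an unadjusted p under 0.05, TXN and TXNRD1. The median log2 fold change of the 9 was 0.05 with shRNA-B, against 0.00 over all genes, and 0.00 with shRNA-D, against -0.01.

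With replicate number in the model as a block, the spread was smaller and 2 of the 9 were called. TXN rose with shRNA-D, with an adjusted p of 0.0356 in edgeR, and for the mean of both hairpins, with 0.0297. TXNRD1 was lower with shRNA-D than with shRNA-B, with an adjusted p of 0.0396. In that model 9.58% of all genes were called with shRNA-B, 3.3% with shRNA-D, 5.07% for the mean of both hairpins and 12.9% between hairpins. The 1 call among 9 in each of 3 of these comparisons is 1 gene in a small list, and nothing particular to the family is read from it.

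**Figure D2:**
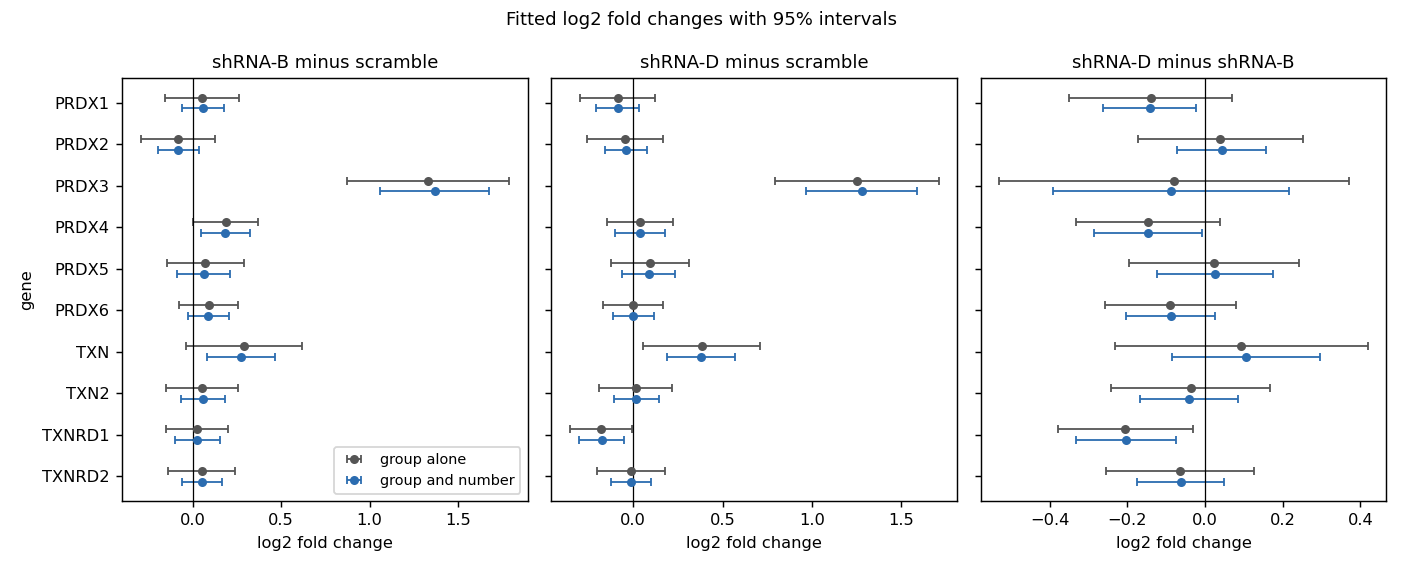
Fitted log2 fold change (x axis) with its 95% interval for each gene (y axis), from the model of group alone (grey) and of group and replicate number (blue); the x axis of the panel between hairpins has its own scale. PRDX3 stands at 1.33 and 1.25 against scramble in the model of group alone, TXN at 0.29 and 0.38, and the other 8 genes between -0.18 and 0.19. PRDX3 was chosen by its values against scramble, so its intervals there are a description and not a test against 0.

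Among the cytosolic peroxiredoxins, PRDX1 (ENSG00000117450), which also acts as a peroxide sensor and chaperone, had the highest level per kilobase of the 10 genes. Scramble libraries held 573.7, 477.6, 478.5 and 516.9 CPM, shRNA-B libraries 582.7, 506.3, 530.2 and 504.6, and shRNA-D libraries 533.4, 425.8, 465.1 and 503.3. The 3 groups overlapped, with log2 fold changes of 0.05 ± 0.10 (SE) with shRNA-B and -0.09 ± 0.10 with shRNA-D. PRDX2 (ENSG00000167815), known as an abundant red cell antioxidant, held 213.6, 197.0, 166.8 and 188.6 CPM with scramble. It held 193.0, 197.7, 159.9 and 172.2 with shRNA-B and 201.0, 185.8, 173.2 and 182.9 with shRNA-D. These groups overlapped too, with log2 fold changes of -0.08 ± 0.10 and -0.04 ± 0.10. PRDX6 (ENSG00000117592), which has a single reactive cysteine reset by glutathione and also a phospholipase activity, ranged from 288.1 to 322.1 CPM with scramble, 303.5 to 354.0 with shRNA-B and 295.1 to 322.7 with shRNA-D.

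PRDX4 (ENSG00000123131) couples peroxide removal to disulfide formation in the endoplasmic reticulum. Among the 5 other peroxiredoxins it alone had a group that did not overlap scramble, that of shRNA-B. Scramble libraries held 117.6, 129.6, 122.2 and 130.9 CPM and shRNA-B libraries 133.7, 151.6, 151.2 and 132.5. The lowest shRNA-B library lay above the highest scramble library by less than the SD within either group, and the log2 fold change was 0.19 ± 0.09 (SE) with an adjusted p of 0.641 in edgeR. With shRNA-D it held 119.8, 119.7, 139.6 and 135.0 CPM and overlapped scramble, with a log2 fold change of 0.04 ± 0.09. The 2 hairpins were not distinguished for this gene (log2 difference -0.15, 95% interval -0.33 to 0.04). PRDX5 (ENSG00000126432), an atypical peroxiredoxin found in mitochondria, peroxisomes and cytosol, was close to 100 CPM in scramble libraries, at 97.0, 96.7, 100.05 and 100.2. It spread more widely with shRNA-B, at 89.9 to 117.1, and with shRNA-D, at 95.3 to 119.9, on both sides of the scramble values.

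TXN (ENSG00000136810), the cytosolic thioredoxin that reduces PRDX1, PRDX2 and many other proteins, showed the largest fitted change among the 9 tested members. Scramble libraries held 168.1, 231.2, 205.4 and 213.6 CPM, shRNA-B libraries 201.1, 265.5, 319.1 and 214.8, and shRNA-D libraries 232.3, 257.1, 318.0 and 260.0. The lowest shRNA-D library, 232.3 CPM, exceeded the highest scramble library, 231.2 CPM, by a small margin, while shRNA-B overlapped scramble. Log2 fold changes were 0.29 ± 0.15 (SE) with shRNA-B and 0.38 ± 0.15 with shRNA-D, and edgeR's adjusted p was 0.734 and 0.882. Within replicate numbers TXN was higher in 4 of 4 pairs with each hairpin, by 1.01-fold to 1.55-fold with shRNA-B and 1.11-fold to 1.55-fold with shRNA-D. The blocked log2 fold change was 0.27 ± 0.09 with shRNA-B (adjusted p 0.0742 in edgeR) and 0.38 ± 0.09 with shRNA-D (adjusted p 0.0356 in edgeR). In fits chosen after seeing the data, the call with shRNA-D held when 8 of the 12 libraries were left out singly, and was lost without scramble replicate 1 or shRNA-D replicate 1, 3 or 4 (adjusted p 0.0896 to 0.123 in edgeR). For the mean of both hairpins, blocked log2 0.33 ± 0.08, it held in 7 of 12. It was lost without scramble replicate 1 or 3 or shRNA-D replicate 1, 3 or 4, with adjusted p from 0.0509 to 0.104 in edgeR.

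TXN2 (ENSG00000100348), the thioredoxin that reduces PRDX3 in mitochondria, was tested in the same libraries. It held 80.1, 66.2, 63.8 and 76.8 CPM with scramble, 77.3, 72.8, 73.3 and 73.9 with shRNA-B, and 78.1, 64.5, 70.1 and 77.2 with shRNA-D. The groups overlapped, and the log2 fold changes were 0.05 (95% interval -0.15 to 0.26) and 0.01 (-0.19 to 0.22). Its reductase TXNRD2 (ENSG00000184470) had the lowest level per kilobase and ranged from 21.1 to 25.2 CPM with scramble, 22.1 to 25.2 with shRNA-B and 21.8 to 23.5 with shRNA-D. The log2 fold changes of TXNRD2 were 0.05 (95% interval -0.14 to 0.24) and -0.01 (-0.20 to 0.18).

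TXNRD1 (ENSG00000198431), the cytosolic reductase, separated the hairpins from each other. Its levels were 181.7, 194.8, 210.0 and 179.4 CPM with scramble, 191.0, 196.3, 208.1 and 183.9 with shRNA-B, and 160.1, 165.6, 169.4 and 180.8 with shRNA-D. All 4 shRNA-D libraries lay below all 4 shRNA-B libraries, and 3 of them lay below every scramble library. The log2 difference, shRNA-D minus shRNA-B, was -0.21 ± 0.08 (SE), with an adjusted p of 0.393 in edgeR, and with the block -0.20 ± 0.06, with an adjusted p of 0.0396 in edgeR. The blocked call held in 2 of 12 fits with a library left out, those without scramble replicate 3 or shRNA-D replicate 4 (adjusted p over the 12 from 0.0169 to 0.203 in edgeR). Against scramble, TXNRD1 was at -0.18 ± 0.08 with shRNA-D, with an adjusted p with the block of 0.152 in edgeR, and at 0.03 ± 0.08 with shRNA-B.

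Groups of 4 that did not overlap were found for 2 members with shRNA-B, PRDX3 and PRDX4, against 4.95% of all genes tested. There were 2 with shRNA-D, PRDX3 and TXN, against 3.61% of all genes, and 1 between the hairpins, TXNRD1, against 6.05%. PRDX3 is in these counts by the way it was chosen.

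Levels of different genes were set side by side only per kilobase of the longest annotated coding transcript. In scramble libraries the order, in CPM per kilobase, was PRDX1 at 415 ± 36.6, TXN at 235 ± 30.6, PRDX2 at 194 ± 19.7, PRDX6 at 175 ± 8.75, PRDX4 at 124 ± 6.28, PRDX5 at 110 ± 2.11, and PRDX3 at 66.6 ± 20.4 (SD, n = 4). TXNRD1 followed at 44.8 ± 3.29, TXN2 at 41.3 ± 4.58 and TXNRD2 at 7.33 ± 0.53. Neighbours whose ranges of libraries overlapped, and which therefore were not ordered beyond their spread, were TXN and PRDX2, PRDX2 and PRDX6, PRDX3 and TXNRD1, and TXNRD1 and TXN2. PRDX3 ranked 7 of 10 with scramble and 5 of 10 with each hairpin, at 168 ± 24.7 with shRNA-B and 159 ± 31.0 with shRNA-D, above the means of PRDX4 and PRDX5. Its range overlapped that of PRDX4 with either hairpin and that of PRDX5 with shRNA-D. Within the mitochondrial trio, TXN2 was at 42.8 ± 1.18 and 41.8 ± 3.69 with the hairpins and TXNRD2 at 7.59 ± 0.46 and 7.26 ± 0.23. With the length of all merged exons in place of the longest transcript, the scramble order changed. PRDX3, at 31.0, came under TXN2, at 35.0. PRDX2, at 91.5, came under PRDX6, at 129, and PRDX5, at 110, and PRDX4, at 65.7, came under PRDX5. Merged exons came to 3417 bases for PRDX3 and 893 for PRDX5. The ranks of PRDX3 with the hairpins were taken with the longest transcript only and can change with the length used.

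PRDX3 made up 3.52, 6.80, 6.45 and 7.83% of the summed per-kilobase signal of the 6 peroxiredoxins in scramble libraries. The share was 11.8, 12.04, 14.8 and 16.3% with shRNA-B and 11.4, 12.6, 14.2 and 16.4% with shRNA-D. Every knockdown library thus held a larger PRDX3 share than any scramble library, with means of 6.15 ± 1.85%, 13.7 ± 2.18% and 13.7 ± 2.17% (SD, n = 4). The shares add to the whole, so they are not independent. PRDX1 was at 38.2 ± 2.59% in scramble, 35.1 ± 2.38% in shRNA-B and 33.7 ± 2.23% in shRNA-D libraries, and PRDX4 at 11.5 ± 0.64%, 11.6 ± 0.68% and 11.05 ± 0.72%. The sum of all 6 genes was 1085 ± 41.6 CPM per kilobase for scramble, 1224 ± 23.1 for shRNA-B and 1158 ± 58.0 for shRNA-D. Without PRDX3 the sum of the other 5 was 1018 ± 46.2, 1057 ± 41.2 and 999 ± 40.9, and the groups overlapped.

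**Figure D3:**
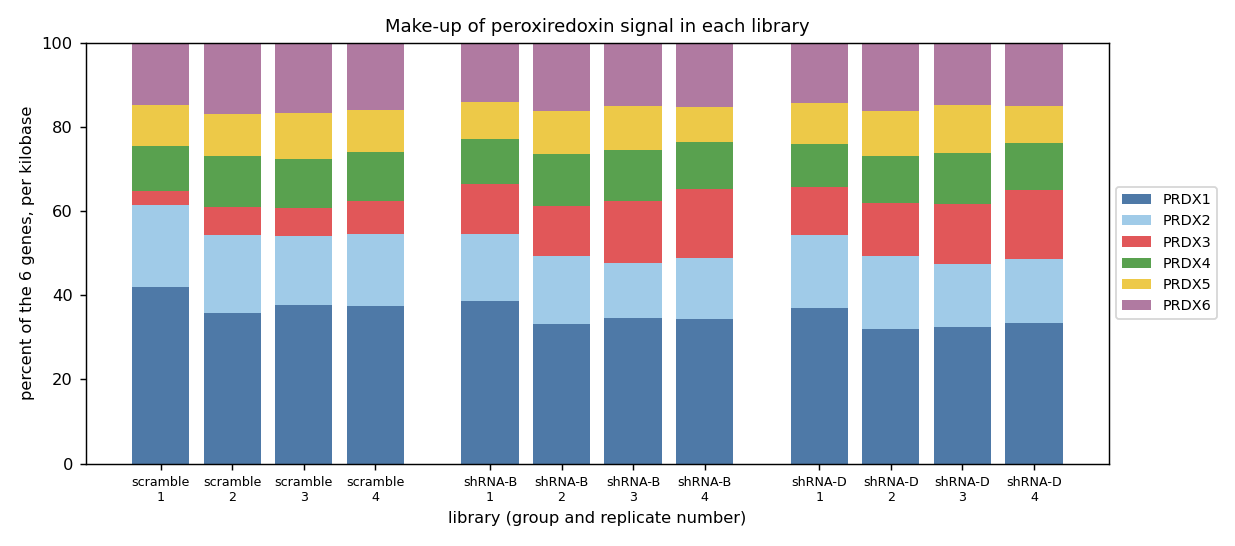
Percent (y axis) that each of the 6 peroxiredoxins made up of their summed CPM per kilobase in each library (x axis, by group and replicate number). The PRDX3 band covers 3.52 to 7.83% with scramble and 11.4 to 16.4% with the hairpins.

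Levels also moved with the replicate number, which recurs in all 3 groups and was not used to choose PRDX3. In a test of replicate number in the model of group and number, edgeR called 5 of the 10 members, against a background of 47.2% of all genes tested, so the count is near the background. PRDX3 was highest in number 4 and lowest in number 1 in all 3 groups, with means over groups of 168, 190, 220 and 255 CPM for numbers 1 to 4 and an adjusted p of 0.0251 in edgeR. The widest fitted difference between numbers, taken over the 3 groups together, was 0.71 on the log2 scale. Within scramble alone PRDX3 ran from 62.2 to 139.5 CPM. TXN was lowest in number 1 in all 3 groups, with means of 201, 251, 281 and 229 CPM and an adjusted p of 0.0109 in edgeR. PRDX1 and TXN2 were highest in number 1 in all 3 groups (adjusted p 0.0197 and 0.0415 in edgeR), and PRDX2 was lowest in number 3 in all 3 (0.0101). PRDX4, PRDX5, PRDX6, TXNRD1 and TXNRD2 did not pass, with adjusted p from 0.0832 to 0.347. Without replicate number 1, edgeR called PRDX3 alone of the 10 (adjusted p 0.0146), and the genes called fell from 12457 to 7027. Without number 3 or 4, PRDX3 was not called (adjusted p 0.0659 and 0.168). Without number 3 the calls were PRDX1, TXN and TXN2, and without number 4 PRDX1, PRDX2 and TXN. What a number stands for is not given by the labels.

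**Figure D4:**
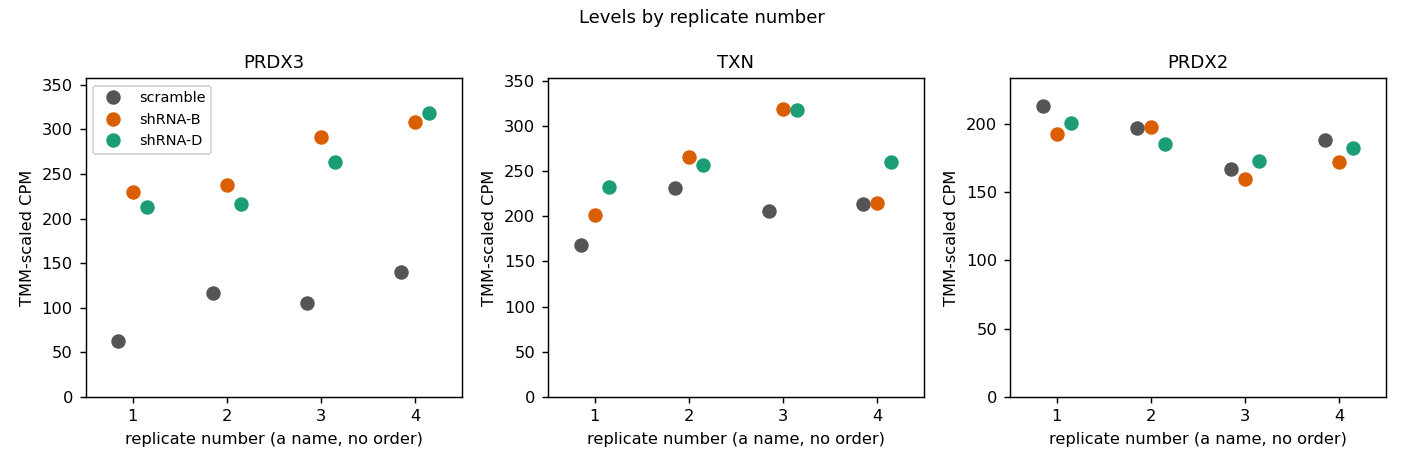
TMM-scaled CPM (y axis, from 0) of PRDX3, TXN and PRDX2 for replicate numbers 1 to 4 (x axis; the numbers are names without an order), with a point per library coloured by group and set slightly apart. PRDX3 is lowest in number 1 and highest in number 4 in each group, TXN is lowest in number 1, and PRDX2 is lowest in number 3.

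Genes that act with the family, or belong to the settings in which it works, were taken from 7 lists of 70 genes. Of these 68 were tested, and GPX7 and ME3 did not pass the filter. With group alone in the model, edgeR called 1 of 68 with shRNA-B, 0 with shRNA-D, 0 for the mean of both hairpins and 2 between hairpins, where 0.876%, 0.269%, 0.231% and 0.952% of all genes were called. Unadjusted p was under 0.05 for 9 of 68 with shRNA-D and 6 for the mean, and DESeq2 called 1 (TALDO1) and 3 (MSRB3, SEPHS1 and TXNDC5). With the block there were 5 higher and 3 lower with shRNA-B, 1 higher and 7 lower with shRNA-D, 1 and 4 for the mean, and 1 higher and 10 lower between hairpins, or 11.8, 11.8, 7.35 and 16.2% of the 68. The shares in all genes under that model were 9.58, 3.3, 5.07 and 12.9%. The lists were chosen with earlier results of these data known, so the shares of the 68 are a description.

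Among 19 redox partners, MSRB3, which repairs oxidised methionine in the endoplasmic reticulum and mitochondria with reducing power from thioredoxin, was lower with shRNA-B. It held 20.3, 21.9, 21.3 and 18.2 CPM with scramble, 13.1, 13.1, 13.3 and 13.1 with shRNA-B, and 24.5, 21.2, 21.1 and 20.4 with shRNA-D. The shRNA-B libraries lay below all others, with a log2 fold change of -0.64 ± 0.10 (SE, adjusted p 0.00583 in edgeR), and shRNA-D exceeded shRNA-B by 0.73 ± 0.10 (adjusted p 0.00284 in edgeR). SESN3, a sestrin that restrains mTORC1, was lower with both hairpins with the block, by log2 -0.58 ± 0.13 and -0.81 ± 0.13 (adjusted p 0.0223 and 0.0110 in edgeR). It was not called with group alone (0.592 and 0.445), and its CPM was 55.1 to 119.6 with scramble, 44.4 to 83.4 with shRNA-B and 38.9 to 59.4 with shRNA-D. Its relative SESN1 and the thioredoxin-like NXN were lower with shRNA-D with the block, at -0.36 ± 0.07 and -0.25 ± 0.06 (adjusted p 0.0121 and 0.0410 in edgeR). TXNIP, which binds and inhibits thioredoxin, was not called against scramble, and with the block differed between hairpins, shRNA-D minus shRNA-B, by -0.38 ± 0.09 (adjusted p 0.0130 in edgeR). GSR, glutathione reductase, differed in the same direction with the block, by -0.32 ± 0.06 (adjusted p 0.00383 in edgeR).

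Of 8 tested enzymes of peroxide and superoxide removal, SOD2, the superoxide dismutase of the mitochondrial matrix that makes the hydrogen peroxide PRDX3 removes, was lower with shRNA-D with the block. It held 121.2 to 153.2 CPM with scramble, 130.2 to 152.7 with shRNA-B and 95.3 to 121.1 with shRNA-D, where the highest shRNA-D library lay just under the lowest scramble library. The blocked log2 fold change of SOD2 was -0.28 ± 0.05 (adjusted p 0.00901 in edgeR), and with group alone its adjusted p was 0.761. With shRNA-B against scramble the blocked value was 0.05 ± 0.05, without a call. SOD2 was lower with shRNA-D than with shRNA-B with the block, by -0.34 ± 0.05 (adjusted p 0.00116 in edgeR, against 0.216 with group alone). Catalase, SOD1, CCS, GPX1, GPX3, GPX4 and GPX8 were not called by edgeR in any of the 4 comparisons in either model.

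In the mitochondrial matrix list of 9 tested genes, edgeR and DESeq2 called 0 with group alone in any comparison, and NNT with shRNA-D had the 1 unadjusted p under 0.05. With the block, IDH2, which makes mitochondrial NADPH, was lower with shRNA-D by log2 -0.48 ± 0.08 (adjusted p 0.00688 in edgeR). The protease LONP1 and the mitochondrial DNA factor TFAM were higher with shRNA-B by 0.28 ± 0.06 and 0.40 ± 0.10 (adjusted p 0.00685 and 0.0372 in edgeR). IDH2, LONP1 and the chaperone HSPD1 were lower with shRNA-D than with shRNA-B with the block. The list median was 0.09 with shRNA-B and -0.07 with shRNA-D, and over all genes 0.00 and -0.01.

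Among 10 genes of oxidative folding in the endoplasmic reticulum, the thioredoxin-domain disulfide isomerase TXNDC5 was higher with both hairpins with the block. Scramble libraries held 158.2, 234.4, 211.0 and 230.4 CPM, shRNA-B libraries 248.1, 326.1, 290.6 and 289.5, and shRNA-D libraries 247.0, 271.6, 279.6 and 291.4. Every knockdown library lay above every scramble library. The log2 fold change was 0.47 ± 0.13 with shRNA-B and 0.39 ± 0.13 with shRNA-D with group alone (adjusted p 0.141 and 0.538 in edgeR). With the block it was 0.48 ± 0.07 and 0.40 ± 0.07, with adjusted p of 0.00070 and 0.00545 in edgeR. DESeq2, with group alone, called TXNDC5 with shRNA-B and for the mean of both hairpins (adjusted p 0.0146 and 0.0108 in DESeq2). It did not call TXNDC5 with shRNA-D. ERO1A, an oxidase that makes hydrogen peroxide there, was lower with shRNA-D than with shRNA-B with the block, by -0.34 ± 0.07.

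Of 12 genes under NRF2, the factor that drives TXN, TXNRD1 and PRDX1 under oxidative stress, 0 were called by edgeR against scramble with group alone. DESeq2 with group alone called TALDO1, of the pentose phosphate pathway, lower with shRNA-D, as did edgeR with the block (-0.31 ± 0.06, adjusted p 0.0145 in edgeR). TALDO1 was also lower with shRNA-D than with shRNA-B with the block, and the other 11 genes, NQO1, HMOX1, GCLM and SLC7A11 among them, were not called by edgeR in any comparison in either model. Among the 3 ribonucleotide reductase subunits, which take electrons from thioredoxin, RRM2 held 237.3, 236.3, 250.7 and 234.3 CPM with scramble, 332.1, 318.4, 286.8 and 282.5 with shRNA-B and 238.5, 225.9, 216.1 and 243.8 with shRNA-D. The shRNA-B libraries stood above all others, and shRNA-D differed from shRNA-B by -0.40 ± 0.08 (adjusted p 0.0346 in edgeR). With the block RRM2 was called there too (-0.40 ± 0.06, adjusted p 0.00139 in edgeR) and was higher with shRNA-B than with scramble (0.35 ± 0.06, adjusted p 0.00403, against 0.0705 with group alone). DESeq2 called both comparisons (adjusted p 0.000234 and 0.00132). In the model of group alone in edgeR, leaving out any of the 12 libraries in turn ended the call between hairpins, with adjusted p from 0.0570 to 0.171.

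Thioredoxin reductases need selenocysteine, and a list of 7 genes was named for selenoprotein synthesis. In that list SEPHS1 was lower with both hairpins with the block, by -0.22 ± 0.06 and -0.24 ± 0.06 (adjusted p 0.0263 and 0.0297 in edgeR). The supply of selenocysteine was not measured, and none is read from SEPHS1. SECISBP2, which reads the selenocysteine signal, was higher with shRNA-B with the block by 0.21 ± 0.05 (adjusted p 0.0225 in edgeR). Neither was called by edgeR with group alone, and DESeq2, also with group alone, called SEPHS1 for the mean of both hairpins.

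The genes beside PRDX3 in the RefSeq gene table were DENND10 and SFXN4 before it and GRK5 and GRK5-IT1 after it, the last of which was not tested. DENND10, a regulator of endosomal traffic, ranged from 47.2 to 56.3 CPM with scramble, 41.9 to 56.5 with shRNA-B and 40.2 to 48.1 with shRNA-D. SFXN4, a sideroflexin of mitochondria, ranged from 43.1 to 55.3, 45.9 to 57.4 and 41.5 to 54.3 CPM. Neither was called by edgeR against scramble in either model. The blocked log2 fold change of SFXN4 with shRNA-B was 0.13, with a 95% interval of 0.02 to 0.25. SFXN4 was lower with shRNA-D than with shRNA-B with the block, by -0.18 ± 0.06 (adjusted p 0.0460 in edgeR). GRK5, a receptor kinase, held 10.96 to 16.5 CPM with scramble and 8.15 to 10.6 with shRNA-B, lower with the block by -0.53 ± 0.07 (adjusted p 0.00050 in edgeR), against 11.2 to 17.4 with shRNA-D.

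Among the 5 genes whose log2 CPM followed PRDX3 most closely over the 12 libraries, out of 12084 with a mean of at least 5 CPM, were UCHL3 (Pearson r 0.98), RSU1 (0.96), PFN2 (0.95) and HSBP1 (0.94). The libraries share groups, numbers and depth, so r is a description. UCHL3, a ubiquitin hydrolase, was at 29.8 ± 8.60 CPM for scramble, 64.6 ± 15.5 for shRNA-B and 69.4 ± 16.6 for shRNA-D (SD, n = 4). The actin regulator PFN2 was at 87.6 ± 9.42, 193.8 ± 14.2 and 193.9 ± 9.27 CPM. In the family, TXN came closest to PRDX3, with r 0.70 and rank 220, and then PRDX4 with 0.60, while TXN2 stood at 0.07 and PRDX2 at -0.48. After group and number means were taken out, the closest were LONRF1 (0.99), PPP2CB (0.97), CD58 (0.97), STX3 (0.96) and PRPS1 (0.96), and TXN stood at 0.49. Taking out these means leaves fewer free values than the 12 libraries. The 5 were the highest of 12084 genes, so r is high by the way they were picked and is a description here too.

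Processed copies in the genome could take counts from a member. Across 19 annotated copies of the members, none exceeded 15 counts in a library after rounding, and those of PRDX3 together came to 0.035% of its estimated counts. PRDX3 itself had 6269 to 30835 counts per library, and counting error gave it a coefficient of variation of at most 1.26%. The largest such value, 2.60%, was that of TXNRD2 with 1482 to 2538 counts.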

How the data were processed

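Poly(A) RNA of 12 libraries was measured, 4 per group, with group and replicate number taken from each title. The authors deposited estimated counts per gene for 85298 Ensembl identifiers, of which 60443 had a symbol in the reference table. The submitters' processing notes name fastp and kallisto, and their versions, the build and the annotation were not given in the sources used here. Estimated counts divide reads among transcripts that share sequence, so paralogs and processed copies add uncertainty.

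Counts were rounded to whole numbers, scaled by TMM and kept by filterByExpr (26366 genes). edgeR 4.0.16 in R 4.3.3 gave quasi-likelihood F-tests (robust) on all 12 libraries with group alone, and Benjamini-Hochberg adjustment ran over all genes tested; a gene was called at an adjusted p under 0.05. DESeq2 1.42.0 was an alternative. The tests were run on simulated counts first, and no result of that run is used here. The simulated counts for the model of group alone held no effect of replicate number, unlike the data. Totals ranged from 68737402 to 102644699, and p-values measure the spread between libraries that the series design calls biological replicates.

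The members and lists were chosen with earlier results of these data known. Named were SIDT2, the members, the 2 genes on each side of PRDX3, list genes called in either model, and the 5 genes most like PRDX3 by each of 2 measures (log2 CPM with a pseudocount of 0.5). Results for some genes taken by these rules are not reported here. Per-kilobase levels used GENCODE v29 transcript lengths, and promoter windows came from RefSeq (GRCh38.p14).

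Replicate numbers recur in all groups. After group means were removed, same-number libraries correlated at r 0.140 to 0.619 and others at -0.365 to 0.280, and in 11 of 12 the best match was in the own number. The data therefore pair the libraries, and the labels do not state what is shared. With the block the biological coefficient of variation fell from 25.0% to 12.1%.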

Additional observations from a re-analysis of the deposited data

Results flagged for a closer look

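MSRB3, the methionine sulfoxide reductase, is listed because the hairpins differed from each other: the log2 difference, shRNA-D minus shRNA-B, was 0.73, with an adjusted p of 0.00284 in edgeR. Leaving out each library in turn gave 0.68 to 0.78, with adjusted p from 0.00313 to 0.00974, and the call held in 12 of 12. All 4 shRNA-D libraries exceeded all 4 shRNA-B libraries. RRM2 is listed for the same reason, with a difference of -0.40 and an adjusted p of 0.0346 in edgeR. Its values without a library lay between -0.42 and -0.33, with adjusted p from 0.0570 to 0.171, so that 0 of 12 passed, while the block (adjusted p 0.00139) and DESeq2 (0.000234) kept the call with all libraries. No member had a library far from the other 3 of its group by Dixon's test among 30 groups examined.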

How the results depend on the processing

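PRDX3 was chosen by its values against scramble, and its knockdown libraries did not overlap scramble. Its direction could therefore hardly turn in another run of the same data, and only the sizes are described. They were log2 1.32 to 1.37 with shRNA-B and 1.26 to 1.29 with shRNA-D. With a library left out they were 1.15 to 1.50 and 1.09 to 1.44. The replicate block raised the genes called from 231 to 2525 (shRNA-B), 71 to 871 (shRNA-D), 61 to 1337 (mean of both hairpins) and 251 to 3391 (between hairpins), and among members other than PRDX3 it added 1 call each for shRNA-D, the mean and between hairpins; it changed no other member's call. A mean of at least 1 CPM gave 371, 111, 128 and 389 genes, and DESeq2 666, 262, 349 and 793. For the mean of both hairpins, upper quartile scaling gave 94 and no filter 110. With a library left out, the counts were 120 to 261 (shRNA-B), 32 to 76 (shRNA-D), 34 to 91 (mean) and 113 to 310 (between hairpins). Without a replicate number, 7027 to 13430 genes differed between numbers, and 0 to 5 members other than PRDX3. The cause of these moves was not tested.

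Signs near 0 turned without a call. PRDX6 with shRNA-D, -0.0006 in the reported fit, was 0.0005 with the block, 0.0137 with DESeq2 and its size factors, 0.0357 with upper quartile scaling, 0.0086 with no filter and 0.0389 with a mean of at least 1 CPM. TXNRD2 with shRNA-D was 0.0191 with upper quartile scaling and 0.0228 at 1 CPM, and TXN2 between hairpins 0.0132 and 0.0088. With a library left out the log2 ranges with shRNA-B were -0.0022 to 0.1204 (PRDX1), -0.0093 to 0.1157 (TXN2) and -0.0021 to 0.0652 (TXNRD1). With shRNA-D they were -0.1296 to 0.0001 (PRDX1), -0.0940 to 0.0400 (PRDX2), -0.0073 to 0.0360 (PRDX6), -0.0276 to 0.0986 (TXN2) and -0.0450 to 0.0569 (TXNRD2). Between hairpins they were -0.0057 to 0.1083 (PRDX2), -0.1917 to 0.0189 (PRDX3), -0.0214 to 0.0957 (PRDX5) and -0.0626 to 0.0329 (TXN2).

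Merged exons lowered the scramble level of PRDX3 per kilobase from 66.6 to 31.0, and shares without length put PRDX3 at 7.91, 17.2 and 17.2%.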
